A study of Drosophila melanogaster with 6 samples.

Results

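Wandering larvae of Drosophila melanogaster depleted of Cmi were compared with wild type at the blue gut stage, the earlier part of wandering, when the gut still holds dyed food. Genes were taken into the comparison where the mean of both blue gut libraries was at least 1 RPKM (reads per kilobase of gene length, scaled to the depth of the library), which left 11214 of the 15741 entries of the deposited table. The library of depleted larvae expressed a short hairpin RNA against Cmi with the GawB69B Gal4 driver. Which wild-type stock was used, and whether its larvae had the driver or any hairpin, the labels leave unsaid. Depletion and differences between the stocks therefore cannot be told apart in any result below. Each library came from whole larvae in the last instar raised at 25 °C, pooled from more than 20 animals of a genotype. The study holds 4 further libraries, of wild type and Cmi depletion at the later clear gut stage and of larvae carrying a hairpin against Trr at both stages, with 1 library in each of the 6 groups. The difference at blue gut could not be tested, since no pool was repeated within a genotype and stage, and no fit over both stages was made. Higher and lower below describe the libraries, and the intervals in brackets are exact 95% counting intervals that hold no spread between pools.

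Cmi is the protein of the gene Lpt. It carries the reader domains that in mammals form part of the same large protein as the methyltransferase, whereas in flies the enzyme is the separate protein Trr. Together they belong to a COMPASS-like complex that places methyl groups on histone H3 lysine 4 at enhancers, and the complex is known as a coactivator of the ecdysone receptor. At the end of larval life pulses of ecdysone first induce and later repress the salivary glue genes. The pulses also stop feeding and prepare the body for the puparium, so wandering larvae change much of their RNA within hours.

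The blue gut libraries held 23.1 M reads on genes in wild type and 23.6 M in Cmi depletion, and the other 4 held 23.3 to 25.01 M. The 10 most abundant entries took 19.4% and 17.8% of all reads there. RNA of salivary gland, fat body, midgut, muscle and cuticle was present in both blue gut libraries, as whole larvae should hold. Summed over the genes of each list, salivary glue stood at 23825 and 6479.8 RPKM in wild type and Cmi depletion, and midgut digestion at 72372 and 86437. Because the libraries are whole larvae, fewer cells of a type and less RNA per cell cannot be told apart in any result below.

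Lpt, the depleted gene (dm6 chromosome 2R, 23898561 to 23903661), was lower in Cmi depletion than in wild type at both stages, by less than 2-fold. It measured 5.57, 4.44 and 5.95 RPKM in the wild-type, Cmi and Trr-labelled libraries of blue gut, and 6.66, 5.11 and 6.95 in those of clear gut. Both Cmi depletion libraries are thus the lowest of the 6. The blue gut values rest on 591 and 481 reads, a ratio of 0.797 (0.705 to 0.9003). Lpt is a long gene, and relative to genes of like length its log2 ratio was -0.64 rather than -0.27. The gene of its partner, trr, measured 2.92, 4.49 and 3.6 RPKM in the wild-type, Cmi and Trr-labelled libraries of blue gut, and 6.19, 5.92 and 4.76 in those of clear gut. At blue gut trr was thus higher in both hairpin libraries than in wild type, and 1.53 times as high (interval 1.38 to 1.71) in Cmi depletion. Relative to genes of like length its log2 ratio in Cmi depletion was -0.07. In the Trr-labelled blue gut library the log2 ratio of trr over wild type was 0.23, while genes of 4344 bases or more had a median of 0.43. At clear gut trr was lowest in the Trr-labelled library. In RPKM as deposited trr stands above wild type in the Trr-labelled blue gut library, against its label, so it is called the Trr-labelled library throughout.

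At blue gut 476 genes differed by 2-fold or more on the log2(RPKM + 1) scale, 4.24% of those compared. Of these, 215 were higher in Cmi depletion (1.92%) and 261 were lower (2.33%). With 0.1 RPKM added in place of 1 the balance turned, with 389 higher and 353 lower genes, and with 5 RPKM added the counts were 85 and 165. Past 4-fold there were 41 higher and 55 lower genes. The lower genes included some of the most abundant RNAs of the wandering larva, and together they took 7.73% of the reads in wild type and 2.34% in Cmi depletion. The higher genes took 0.823% and 2.49%. Their median level, as the mean of both libraries, was 8.63 RPKM for higher and 18.5 RPKM for lower genes, against 10.3 RPKM over all genes compared. The median log2 ratio of all genes compared was 0.07, and its 10th and 90th percentiles were -0.44 and 0.58. Values off whole reads can arise where reads are shared between entries, but their origin was not tested. Such values stood in at least 50% of the judged libraries for 65 of the 476 genes. Among genes named below these include CG32198, CG32751, CG6271, CG13060, CG16704 and CG42500, and the same held for Jon66Ci, Fbp1 and Lsp2, which were less than 2-fold apart. Just inside the fold limit lay CG5550, with 12.7 RPKM in the wild-type and 26.5 in the Cmi library, and just outside it CG30288, with 20.2 and 9.62. Just inside the limit on level lay Sytbeta, with 0.767 and 1.23 RPKM, and just outside it CG42580, with 1.597 and 0.401.

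**Figure D1:**
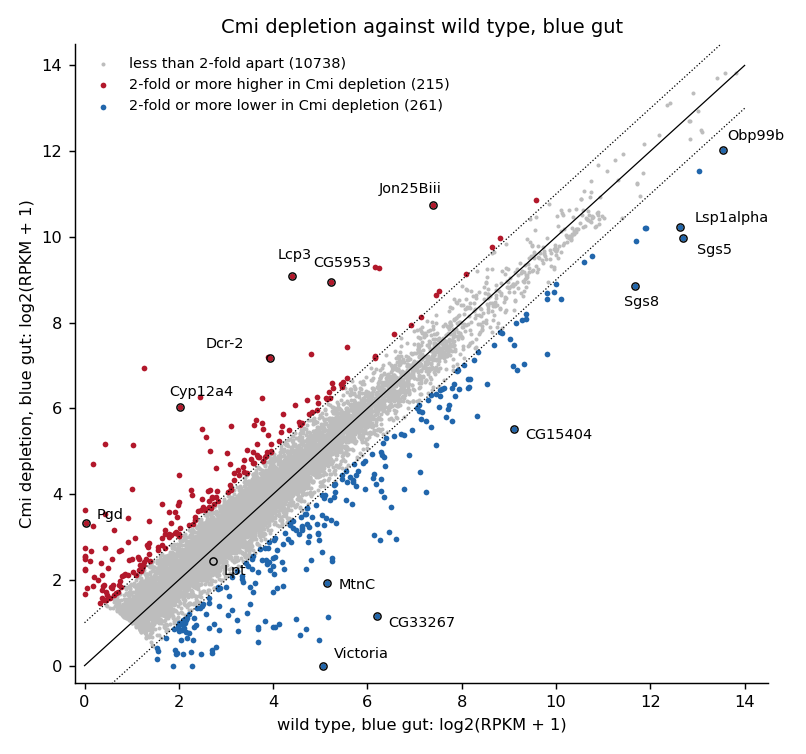
Each point is a gene, with its level in wild type (x axis) and Cmi depletion (y axis) at blue gut, both as log2(RPKM + 1). The solid line marks equal levels and the dotted lines a 2-fold difference; 215 genes lie above the upper line (red) and 261 below the lower (blue), and the abundant blue points at the right are Sgs, Lsp1alpha and Obp99b.

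The size and sign of the ratio moved with gene length. Among genes split into eighths by listed length, the median log2 ratio at blue gut was -0.20 in the shortest (up to 719 bases) and 0.48 in the longest (from 4344 bases), and it stood higher in each eighth than in the one before. Of the shortest genes 6.68% were 2-fold lower, against 0 of 1402 of the longest. The genes 2-fold higher made up 4.26% of the shortest and 1.57% of the longest. In the Trr-labelled library, set against the same wild-type library, the medians were -0.01 and 0.43. Cmi depletion against wild type at clear gut, in other libraries, gave 0.15 for the shortest and 0.07 for the longest. The part that gene length plays in the results was not tested. Below, each blue gut list median that is given stands beside its value relative to genes of like length. That comparison was chosen after the data were seen. Counts of list members 2-fold apart at blue gut are to be set beside 1.92% higher and 2.33% lower over all genes compared.

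**Figure D2:**
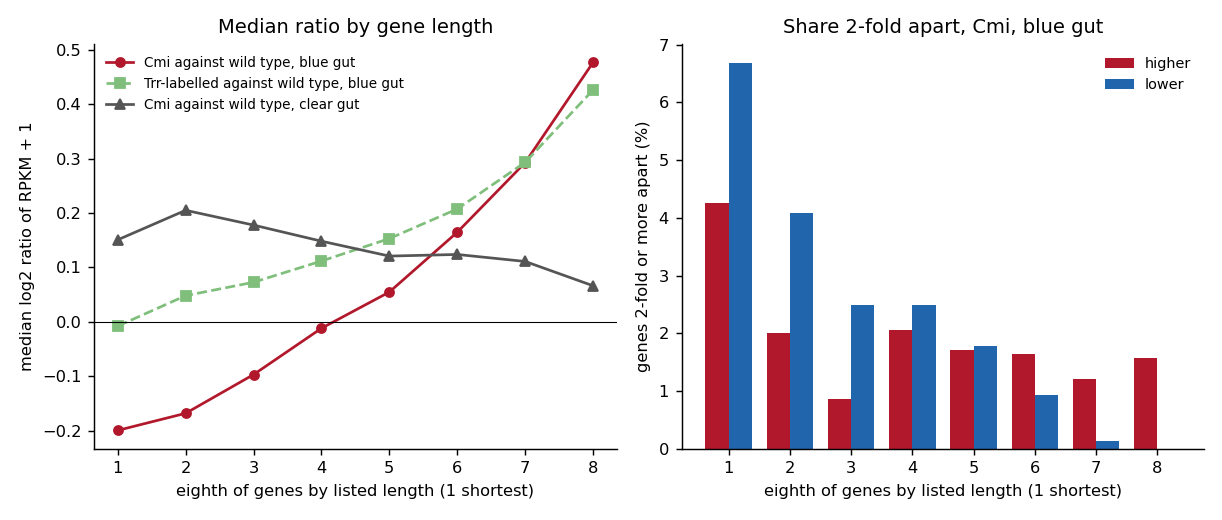
Genes compared at blue gut were split into eighths by listed length (x axis). The left panel shows the median log2 ratio of RPKM + 1, rising from -0.20 to 0.48 for Cmi depletion against wild type at blue gut, with the Trr-labelled library at blue gut and the clear gut comparison beside it; the right panel shows the share of genes 2-fold or more higher (red) or lower (blue) in Cmi depletion at blue gut, in percent.

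A small set of genes was far higher in Cmi depletion at both stages. Cyp12a4, a mitochondrial cytochrome P450 (chromosome 3R, 19135158 to 19137136), measured 3.06, 64.9 and 155 RPKM in the wild-type, Cmi and Trr-labelled libraries of blue gut, and 1.65, 42.7 and 117 in those of clear gut. Every library with a hairpin was higher than both wild-type libraries, and Cmi depletion at blue gut was 21.2-fold higher (17.7 to 25.6) than wild type. Pgd, the 6-phosphogluconate dehydrogenase of the pentose phosphate pathway (chromosome X, 2145136 to 2148566), measured 0.023, 9.102 and 10.5 RPKM in the wild-type, Cmi and Trr-labelled libraries of blue gut, and 0, 7.83 and 9.69 in those of clear gut. The wild-type libraries thus held almost no Pgd reads, 1 at blue gut against 411 in Cmi depletion, a ratio of 396 (71.4 to 14870). Its upstream partner Zw, glucose-6-phosphate dehydrogenase, stood at 21.2 RPKM in the wild-type and 18.01 in the Cmi library at blue gut. Rack1, a scaffold protein on the small ribosomal subunit, measured 4.49, 75.4 and 67.96 RPKM in the wild-type, Cmi and Trr-labelled libraries of blue gut, and 5.32, 71.6 and 62.9 in those of clear gut. It was 16.8-fold higher (14.2 to 19.97) in Cmi depletion at blue gut. In most libraries its values were off whole reads, so some of its reads may have been shared with another entry and its level is uncertain.

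Dcr-2, the Dicer that cuts double-stranded RNA into small interfering RNAs (chromosome 2R, 17574979 to 17581525), was high in both Cmi depletion libraries and in no other. It measured 14.3, 143 and 17.2 RPKM in the wild-type, Cmi and Trr-labelled libraries of blue gut, and 29.3, 197 and 25.6 in those of clear gut. At blue gut this was 9.95-fold higher (9.49 to 10.4) than wild type, on 19155 against 1885 reads. Of the 25 genes of the small RNA machinery that were compared, Dcr-2 was the only gene 2-fold higher and 0 were 2-fold lower. Its partners in the same pathway, named after their values were seen, differed less. AGO2, the Argonaute that carries small interfering RNAs, measured 61.2 RPKM in the wild-type and 77.1 in the Cmi library, and r2d2, which loads them, 16.2 and 19.2 RPKM. The list's median log2 ratio was 0.22, and 0.0039 relative to genes of like length. CG5953 (4908 bases, chromosome 2L, 16508078 to 16532877) was also highest in the Cmi depletion libraries. It measured 36.5, 494 and 145 RPKM in the wild-type, Cmi and Trr-labelled libraries of blue gut, and 99.02, 586 and 245 in those of clear gut, and was 13.5-fold higher (13.1 to 13.95) at blue gut.

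**Figure D3:**
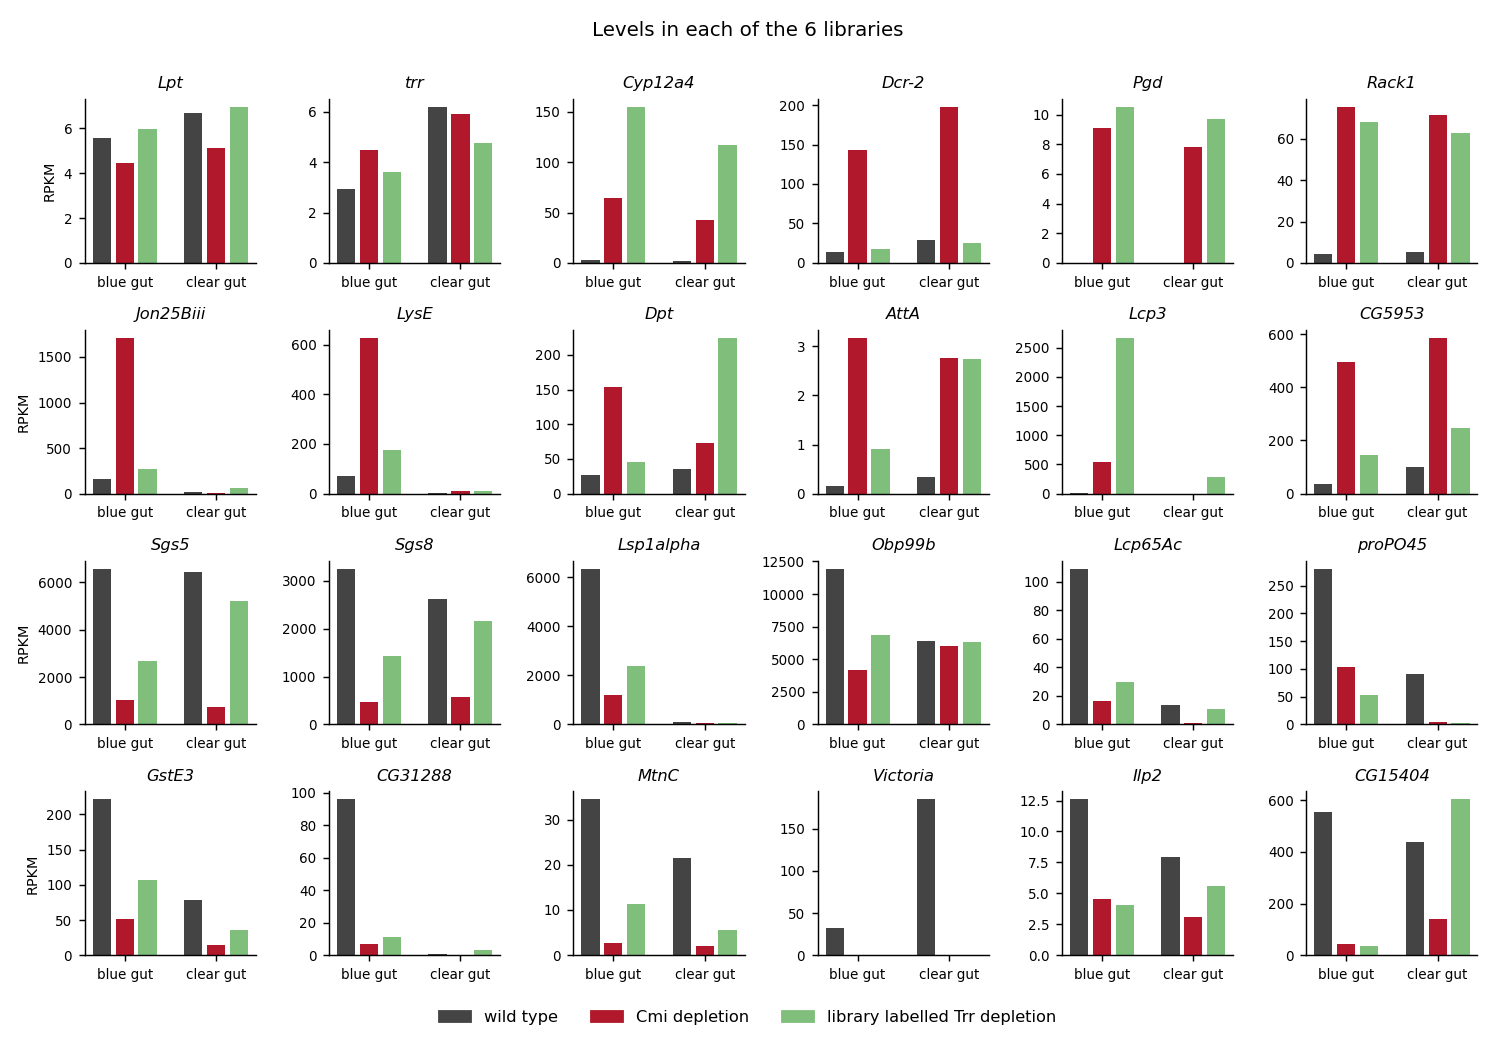
Bars give the level (y axis, RPKM, from 0, own scale per gene) of 24 genes in each of the 6 libraries, 1 library per bar and no error bars, at blue gut (left group) and clear gut (right group). Dcr-2 and CG5953 are highest in the Cmi depletion libraries, Cyp12a4, Pgd and Rack1 in both hairpin genotypes, and Victoria is near 0 in every hairpin library.

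Genes of detoxification differed in both directions. Cytochromes P450, which oxidise hormones, fatty acids and toxins, were 2-fold higher in 5 and 2-fold lower in 9 of 71 genes compared. These are 7.04% and 12.7%, where all genes compared gave 1.92% and 2.33%. The list's median was 0.0041 (-0.07 relative to genes of like length). Cyp4e3 measured 4.93, 39.2 and 15.8 RPKM in the wild-type, Cmi and Trr-labelled libraries of blue gut, and 0.884, 0.35 and 5.46 in those of clear gut. Cyp6w1 measured 7.604, 47.4 and 14.7 RPKM in the wild-type, Cmi and Trr-labelled libraries of blue gut, and 0.852, 0.46 and 3.803 in those of clear gut. Both were highest in Cmi depletion at blue gut and below 1 RPKM in wild type and Cmi depletion at clear gut. Cyp6a2, a gene known from insecticide resistance, stood at 0.538 RPKM in the wild-type and 8.03 in the Cmi library, 14.9-fold higher (9.598 to 24.5). Glutathione S-transferases, which join glutathione to reactive compounds, were 2-fold lower in 5 of 31 genes and 2-fold higher in 0, with a median of -0.27 (-0.18 relative to genes of like length). GstE3 measured 221, 51.3 and 107 RPKM in the wild-type, Cmi and Trr-labelled libraries of blue gut, and 78.4, 15.2 and 36.3 in those of clear gut. It was lowest in Cmi depletion at each stage, and at blue gut it was 4.32-fold lower (4.02 to 4.64). GstD6 stood at 4.55 RPKM in the wild-type and 0.208 in the Cmi library, 21.9-fold lower (10.4 to 55.3). GstD9 and GstE7 were 4.32-fold and 2.69-fold lower. Of 24 UDP-glycosyltransferases, which attach sugars to small molecules, 3 were 2-fold lower and 0 higher. The list's median was 0.10 (-0.03 relative to genes of like length), with 13 genes above 0 and 11 below. The neighbours CG5724 (Ugt37A2) and CG5999 (Ugt37A3) stood at 80.5 and 173 RPKM in the wild-type library and 14.2 and 34.5 in the Cmi library. CG5999 and Rpi, below, had values off whole reads in at least 50% of the libraries that could be judged.

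MtnC, a metallothionein, measured 34.5, 2.79 and 11.3 RPKM in the wild-type, Cmi and Trr-labelled libraries of blue gut, and 21.5, 1.97 and 5.65 in those of clear gut. In Cmi depletion it was lowest at both stages, and at blue gut it was 12.4-fold lower (7.83 to 20.6), on 20 against 242 reads. MtnD stood at 93.8 and 40.01 RPKM, and the 6 metallothioneins compared had 2 2-fold lower, 0 higher and a median of -0.53 (-0.35 relative to genes of like length). From no list, CG6188, the glycine N-methyltransferase Gnmt that uses up the methyl donor S-adenosylmethionine, was named after its values were seen. It measured 86.4, 7.73 and 27.4 RPKM in the wild-type, Cmi and Trr-labelled libraries of blue gut, and 3.02, 1.89 and 3.88 in those of clear gut. This is a blue gut difference, 11.2-fold lower (9.61 to 13.1), on a gene that is low in every clear gut library. Beside Pgd, the pentose phosphate list held Rpi, ribose-5-phosphate isomerase, at 17.5 and 6.13 RPKM, and a median of -0.22 (-0.18 relative to genes of like length) over 8 genes.

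Digestive enzymes of the midgut differed in both directions, and the largest ratios were upward. Of 55 genes compared, 6 were 2-fold higher and 5 lower, with a median of 0.23 (0.29 relative to genes of like length). Jon25Biii, a serine protease, measured 166, 1710.3 and 271 RPKM in the wild-type, Cmi and Trr-labelled libraries of blue gut, and 17.6, 9.31 and 57.8 in those of clear gut. It was 10.3-fold higher (9.96 to 10.7) in Cmi depletion at blue gut, the highest of the 6 libraries, and low in every clear gut library. LysE, a digestive lysozyme, measured 70.5, 627 and 175 RPKM in the wild-type, Cmi and Trr-labelled libraries of blue gut, and 2.15, 8.96 and 9.56 in those of clear gut. It was 8.89-fold higher at blue gut, but its values were off whole reads, as can happen among the near-identical lysozyme genes. The maltases Mal-A3 and Mal-A4 stood at 12.5 and 11.4 RPKM in the wild-type library and 74.1 and 51.6 in the Cmi library. The members 2-fold lower, named after their values were seen, were betaTry, Amy-d, Jon99Fi, Jon99Fii and CG9465 (LManIV). The trypsin gene betaTry stood at 1554 and 682 RPKM and the serine protease gene Jon99Fii at 32.9 and 8.78, and 22 of the 55 lay below 0. Several abundant proteases were higher by less than 2-fold. Jon66Ci stood at 5504 and 8885 RPKM, yip7 at 5254 and 8708, and deltaTry at 2754 and 3901. Next to each other among genes compared on chromosome 3L (7398285 to 7404181), CG8562, CG18417 and CG8560 were 2.54-fold, 3.17-fold and 2.16-fold higher. At clear gut, where the summed RPKM of the list was 12109 in wild type and 10235 in Cmi depletion, 1 member was 2-fold higher and 13 were lower of the 47 compared there, where over all genes compared at both stages 1.31% were higher and 4.3% lower.

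Antimicrobial peptides stood apart in both directions, with more of them higher. Of 14 compared, 7 were 2-fold higher and 3 lower, with a median of 0.88 (1.08 relative to genes of like length). The higher ones were the attacins AttA, AttC and AttD, the diptericins Dpt (DptA) and DptB, drosocin (Dro) and Drsl2, and the lower ones Drs, Drsl5 and CecC. Diptericins and attacins are known as targets of the Imd pathway, and Drs as a target of Toll in fat body. No pathway is given here for the other members, CecC among them, and whether the differences follow these pathways was not tested. Dpt measured 26.9, 154 and 45.01 RPKM in the wild-type, Cmi and Trr-labelled libraries of blue gut, and 35.001, 73.5 and 224 in those of clear gut, and was 5.74-fold higher (5.09 to 6.49) at blue gut. Dro stood at 0.894 and 9.796 RPKM, 10.96-fold higher (6.56 to 19.6), and AttA rested on 3 reads in wild type and 63 in Cmi depletion, a ratio of 20.6 (6.72 to 103). Drs, named after its values were seen, measured 233, 76.7 and 508 RPKM in the wild-type, Cmi and Trr-labelled libraries of blue gut, and 798, 959 and 1027 in those of clear gut. Drsl5 measured 118, 29.2 and 8.73 RPKM in the wild-type, Cmi and Trr-labelled libraries of blue gut, and 3042, 2868 and 1251 in those of clear gut, and was 4.03-fold lower (3.56 to 4.58) at blue gut. Drs and Drsl5 thus stood lower in Cmi depletion at blue gut and less than 2-fold from wild type at clear gut, whereas Drsl2 of the same drosomycin family was higher at blue gut, from 0.137 to 2.62 RPKM. The list's summed RPKM was 757 in wild type and 664 in Cmi depletion. Among peptidoglycan receptors PGRP-SC1b, an amidase that degrades bacterial wall fragments, stood at 46.6 and 173 RPKM, and PGRP-SA, a receptor of the Toll pathway, at 38.99 and 15.4. Of the other 7 immune-induced peptides compared, 1 was 2-fold lower and 0 higher, with a median of -0.65 (-0.41 relative to genes of like length).

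The stress-secreted Turandot proteins held the most extreme lower gene. Victoria (TotE in the current annotation, chromosome 2L, 19912938 to 19913516) measured 32.1, 0 and 0.070 RPKM in the wild-type, Cmi and Trr-labelled libraries of blue gut, and 185, 0.655 and 0.069 in those of clear gut. At blue gut wild type had 452 reads and Cmi depletion 0. This was 154-fold lower with Cmi depletion set to a floor of 3 reads, and the exact counting interval began at 124.6-fold. Victoria was near 0 in every hairpin library. TotC stood at 2.77 and 0.278 RPKM, and TotA, with values off whole reads, at 25.3 and 72.4. The 3 neighbouring heat shock genes Hsp70Ba, Hsp70Bbb and Hsp70Bc were 2.95-fold, 3.26-fold and 3.28-fold higher, from 1.95, 2.28 and 2.102 RPKM. These copies are nearly identical, so their separate levels are uncertain. The other heat shock genes and chaperones among the 25 compared were less than 2-fold apart, and the list's median was 0.23 (0.01 relative to genes of like length).

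Other higher genes with the firmest counts had their highest value at blue gut. CG13135 measured 0.135, 24.9 and 0 RPKM in the wild-type, Cmi and Trr-labelled libraries of blue gut, and 0, 0.497 and 1.303 in those of clear gut. CG32198 measured 0.355, 34.7 and 11.9 RPKM in the wild-type, Cmi and Trr-labelled libraries of blue gut, and 0, 0 and 6.22 in those of clear gut. CG14205 measured 0.995, 16.5 and 27.6 RPKM in the wild-type, Cmi and Trr-labelled libraries of blue gut, and 0.035, 0.068 and 1.05 in those of clear gut. CG13135 was high in Cmi depletion alone, while the other 2 were also higher in the Trr-labelled blue gut library. For CG16772 wild type had 0 reads and Cmi depletion 96. This was 31.3-fold higher with wild type set to a floor of 3 reads, and the exact counting interval began at 24.99-fold. CG16965 stood at 0.359 RPKM in the wild-type and 5.75 in the Cmi library and CG6271 at 13.9 and 146. On the X chromosome (6194737 to 6202559) CG32750, CG32751 and vanin-like, adjacent among genes compared, were 2.45-fold, 33.2-fold and 2.95-fold higher.

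Salivary glue genes were lower in Cmi depletion. They encode proteins that the salivary gland secretes to fix the puparium, and ecdysone is known first to induce and later to repress them. Of 9 compared, 6 were 2-fold lower and 0 higher, 9 of 9 lay below 0, and the median was -1.27 (-1.25 relative to genes of like length). Eig71Ee, given below with the late puff genes, is 1 of the 6. Sgs5 measured 6576, 1011 and 2689.6 RPKM in the wild-type, Cmi and Trr-labelled libraries of blue gut, and 6421, 750.1 and 5196 in those of clear gut. Sgs8 measured 3254, 460.2 and 1424 RPKM in the wild-type, Cmi and Trr-labelled libraries of blue gut, and 2625, 576 and 2164 in those of clear gut. Sgs3 measured 8406, 2968 and 3511 RPKM in the wild-type, Cmi and Trr-labelled libraries of blue gut, and 5564, 571 and 3241 in those of clear gut. In all 3 Cmi depletion was the lowest library of its stage, and at blue gut Sgs5 was 6.502-fold lower (6.39 to 6.61), Sgs8 7.07-fold lower (6.86 to 7.29) and Sgs3 2.83-fold lower (2.81 to 2.86). Sgs4 stood at 3303 and 960.2 RPKM at blue gut. Sgs1, named after its values were seen, was less than 2-fold apart on the log scale used, at 250.2 and 152 RPKM. At clear gut 6 of 8 glue genes compared were 2-fold lower in Cmi depletion, with a median of -2.23. The Trr-labelled library summed to 10341 RPKM over the list at blue gut and 18049 at clear gut, where wild type summed to 18853 and Cmi depletion to 3975.

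Larval cuticle proteins were mostly lower, with 1 large exception. Of 13 compared, 7 were 2-fold lower and 1 higher, with a median of -1.16 (-1.004 relative to genes of like length). Lcp65Ac measured 109, 16.4 and 29.5 RPKM in the wild-type, Cmi and Trr-labelled libraries of blue gut, and 13.4, 1.01 and 11.1 in those of clear gut, and at blue gut it was 6.66-fold lower (5.73 to 7.77). For Lcp65Ae wild type had 42 reads and Cmi depletion 0. This was 14.3-fold lower with Cmi depletion set to a floor of 3 reads, and the exact counting interval began at 11.1-fold. The exception, Lcp3, measured 20.3, 546 and 2669 RPKM in the wild-type, Cmi and Trr-labelled libraries of blue gut, and 1.53, 0.712 and 279 in those of clear gut. It was 26.9-fold higher (24.2 to 30.1) in Cmi depletion at blue gut, and the Trr-labelled library was higher still. Lcp3 lies in a row of 4 related genes on chromosome 2R, with Lcp1, Lcp2 and Lcp4 starting at 8430115, 8433797 and 8437647 and Lcp3 at 8435310. Lcp2 measured 3790.4, 1178 and 1932 RPKM in the wild-type, Cmi and Trr-labelled libraries of blue gut, and 1019, 16.3 and 891 in those of clear gut. Lcp1 stood at 77.2 and 15.8 RPKM at blue gut, and Lcp4, named after its values were seen, at 229 and 188. Lcp3 was thus higher while Lcp1 and Lcp2 beside it were lower, although Lcp1, Lcp2 and Lcp4 had values off whole reads in at least 50% of the judged libraries. Of 40 other cuticle proteins compared, 13 were 2-fold lower and 1 higher, with a median of -0.51 (-0.45 relative to genes of like length). Cpr47Eg stood at 27 and 4.52 RPKM, and Cpr92F at 17.3 and 4.33. Genes for chitin and its matrix were 2-fold lower in 1 of 25, or 4%, near the 2.33% of all genes compared. Their median was -0.19 (-0.27 relative to genes of like length). Genes for dopamine and tanning were 2-fold lower in 0 of 17, with a median of -0.16 (-0.26).

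The abundant storage proteins of fat body and haemolymph did not move together. Larval serum proteins are hexamers that the fat body makes while the larva feeds and takes up again at wandering. Lsp1alpha measured 6347, 1193 and 2398 RPKM in the wild-type, Cmi and Trr-labelled libraries of blue gut, and 101, 63.8 and 77.7 in those of clear gut. Cmi depletion was lowest at each stage, and at blue gut it was 5.32-fold lower (5.28 to 5.36). The sister gene Lsp1gamma stood at 10838 and 13356 RPKM at blue gut, and Lsp1beta and Lsp2, named after their values were seen, at 7387 and 6707, and 14352 and 14423. Lsp1alpha was thus the only larval serum protein gene 2-fold apart. CG42500, an abundant gene lower at both stages, stood at 3841 and 1185 RPKM at blue gut. Fbp1, the receptor for uptake of larval serum proteins, stood at 8725 and 5548 RPKM. In the other direction CG15828, the lipid carrier Apoltp, was 3.53-fold higher (3.26 to 3.82), from 2.58 to 9.11 RPKM, on a listed length of 13330 bases. Over the list, 1 of 14 was 2-fold higher and 1 lower, with a median of -0.17 (-0.38 relative to genes of like length). Obp99b, a secreted protein of the odorant-binding family, had the largest downward difference in RPKM of any gene with a symbol. It measured 11956, 4145 and 6871 RPKM in the wild-type, Cmi and Trr-labelled libraries of blue gut, and 6436, 6051 and 6304 in those of clear gut, so that Cmi depletion at blue gut was the lowest of the 6 libraries and the clear gut libraries lay close together. Of 22 odorant-binding proteins compared, 3 were 2-fold lower and 0 higher, with a median of -0.25 (-0.05 relative to genes of like length).

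Blood cell genes included both prophenoloxidases of crystal cells, the enzymes that start melanin formation in wounds. PPO2, listed as proPO45, measured 281, 103 and 53.01 RPKM in the wild-type, Cmi and Trr-labelled libraries of blue gut, and 91.4, 3.99 and 2.902 in those of clear gut. PPO1, listed as proPO-A1, measured 181, 64.4 and 33.5 RPKM in the wild-type, Cmi and Trr-labelled libraries of blue gut, and 74.01, 3.84 and 1.796 in those of clear gut. Both wild-type libraries were higher than every hairpin library of their stage, and in Cmi depletion at blue gut PPO2 was 2.73-fold lower (2.65 to 2.82) and PPO1 2.81-fold lower (2.703 to 2.92). NimC1 (listed as nimC1), a phagocytosis receptor of plasmatocytes, stood at 25.3 and 11.8 RPKM. Of the 22 blood cell genes compared, 3 were 2-fold lower and 1 higher, with a median of -0.30 (-0.35 relative to genes of like length). The higher gene was peb, a zinc finger factor that many tissues use, at 3.02 and 7.14 RPKM. Relative to genes of like length its log2 ratio was 0.46 rather than 1.02.

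Among hormones and growth signals, Ilp2, an insulin-like peptide of brain neurons, measured 12.6, 4.54 and 4.04 RPKM in the wild-type, Cmi and Trr-labelled libraries of blue gut, and 7.97, 3.12 and 5.58 in those of clear gut. Each hairpin library was below the wild-type library of its stage, and in Cmi depletion at blue gut Ilp2 was 2.77-fold lower (2.12 to 3.67), on 74 against 201 reads. It was the only one of 21 insulin and TOR genes compared that was 2-fold apart. ImpE2, a gene induced by ecdysone in imaginal discs, stood at 83.5 and 38.7 RPKM. It was the only one of 5 such Imp genes compared that was 2-fold apart. Of the 5, 2 lay above 0 and 3 below, with a median of -0.24 (-0.25 relative to genes of like length). Eig71Ee, a secreted protein of a late puff that is also counted in the salivary glue list above, stood at 992 and 417. Of the 3 Eig71E genes compared, it was the 1 that was 2-fold lower, and 1 was higher, Eig71Eg, at 0.292 and 2.003 RPKM. Of 12 early ecdysone response genes compared, 0 were 2-fold apart and 12 of 12 lay above 0, with a median of 0.60. These are long genes, with a median listed length of 6371 bases, and relative to genes of like length the median was 0.15. br, a factor that directs the turn to the pupal programme, measured 16.4, 28.6 and 23.2 RPKM in the wild-type, Cmi and Trr-labelled libraries of blue gut, and 103, 70.1 and 94.6 in those of clear gut. The 17 genes of ecdysteroid synthesis had a median of -0.10 (-0.21 relative to genes of like length) and the 14 of juvenile hormone 0.26 (0.02), with 0 and 0 2-fold higher and 0 and 1 lower. The juvenile hormone gene that was lower was Jhedup, an esterase, at 3.34 and 0.835 RPKM.

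The chromatin and patterning genes that surround Cmi and Trr in genetics were less than 2-fold apart. Of 16 COMPASS subunits, 22 Polycomb group genes, 6 Hox genes, 36 disc selector genes, 16 genes of dpp signalling and 27 of wingless, hedgehog and Notch signalling, 0 differed by 2-fold. Their medians were 0.35, 0.45, 0.50, 0.40, 0.48 and 0.43. Relative to genes of like length the same medians were 0.02, 0.10, 0.09, 0.14, 0.13 and 0.07. Not every member stood higher, and the long gene Lpt lay below 0, as given above. The COMPASS subunits Wdr82 (1090 bases) and Dpy-30L1 (578 bases) stood at 24.4 and 24.95 RPKM in the wild-type library and 24.3 and 22.6 in the Cmi library. The Polycomb group gene sxc (3688 bases), which adds sugar to Polycomb proteins, stood at 25.2 and 42.7. In the Hippo pathway kibra, a scaffold upstream of the kinases, stood at 2.98 and 7.402 RPKM, and the other genes of the 16 compared were less than 2-fold apart. That list's median was 0.29 (0.07 relative to genes of like length), at a median listed length of 4243.5 bases.

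Genes of basic metabolism and of protein synthesis lay slightly below 0 as groups. Cytoplasmic ribosomal proteins had a median of -0.29 (-0.13 relative to genes of like length), with 79 of 81 below 0. The respiratory chain had a median of -0.30 (-0.15), with 79 of 89 below 0. Proteasome subunits had a median of -0.19 (-0.12), glycolysis -0.18 (-0.29) and mitochondrial ribosomal proteins -0.10 (0.02). All but the glycolytic genes are short, with median listed lengths from 819 to 1252 bases. Over these 5 lists 1 gene was 2-fold higher, CG8102 (ND-51L2), at 0.526 and 2.71 RPKM, and 1 lower, RpL37b (RpL37-2), at 13.1 and 5.65. Subunits of the vacuolar ATPase, the proton pump of gut and tubule, had a median of 0.16 (0.17) over 33 genes. Lists with 0 genes 2-fold apart were also muscle sarcomere (22 compared, median 0.22 and -0.0046 relative to genes of like length), neuronal (13, 0.52 and 0.13), cell cycle (31, 0.17 and 0.0010), autophagy (19, 0.04 and -0.0002) and cell death (15, 0.12 and 0.02). In the malpighian tubule list 2 of 14 were 2-fold lower, Uro, the urate oxidase, at 60.7 and 16.5 RPKM, and Oatp58Db, a transporter, at 6.097 and 2.54. Among testis genes dj, a sperm tail protein with values off whole reads, was the only member of 20 that was 2-fold apart, at 2.102 and 6.002 RPKM.

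**Figure D4:**
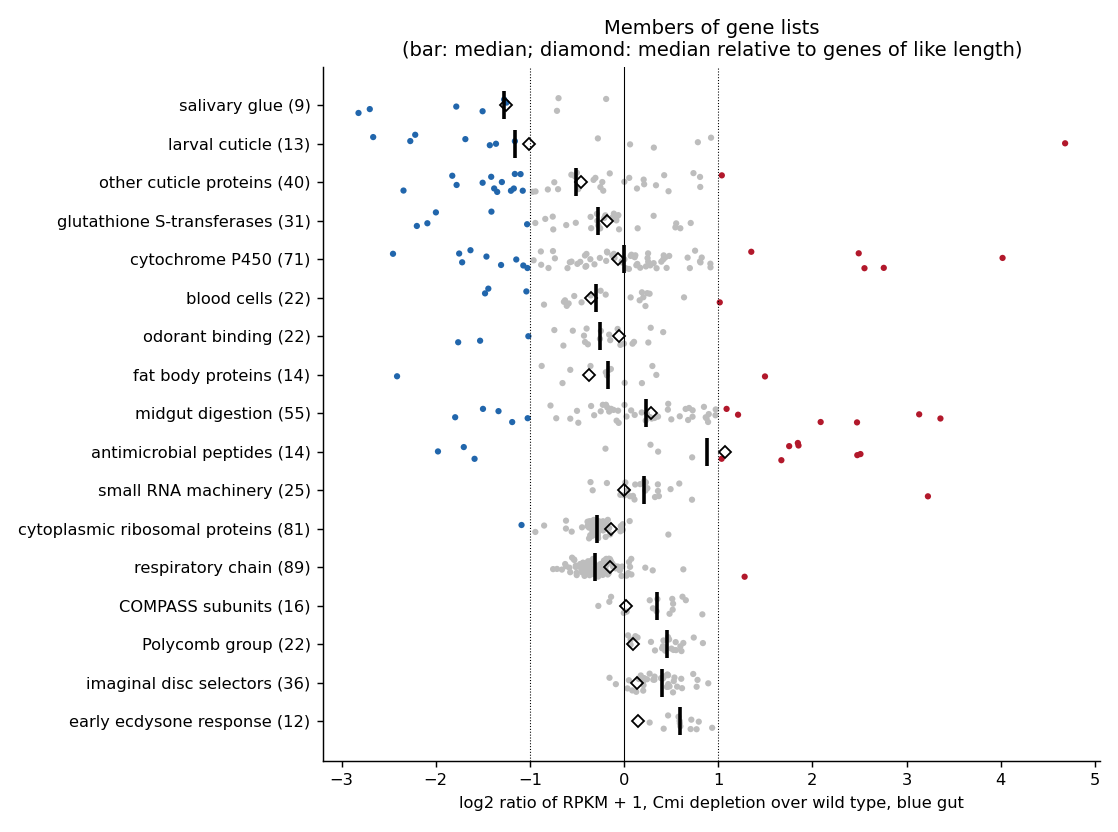
Each point is a gene of a list (y axis, number compared in brackets) at its log2 ratio of RPKM + 1, Cmi depletion over wild type at blue gut (x axis), red where 2-fold or more higher and blue where lower, with dotted lines at 2-fold. Bars mark list medians and diamonds the medians relative to genes of like length; the bar of salivary glue stands at -1.27 with its diamond beside it, while the bar of the COMPASS subunits stands at 0.35 with its diamond at 0.02.

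The same genotypes were compared at clear gut, in other pools of larvae that share no library with the blue gut comparison. Over the 10730 genes compared at both stages, 203 were 2-fold lower at blue gut and 461 at clear gut (4.3%). Of these 114 were lower at both, 56.2% of the blue gut genes and 24.7% of the clear gut genes. Among higher genes 160 were 2-fold higher at blue gut and 141 at clear gut (1.31%), and 47 at both, 29.4% and 33.3%. Of the blue gut genes, a larger share of the lower than of the higher genes recurred, and of the clear gut genes a smaller share; neither contrast was tested. In sign alone 88.7% of the lower genes lay below 0 at clear gut, where 30.7% of all genes did, and 69.4% of the higher genes lay above 0, where 69.3% of all genes did. A further 55 higher and 58 lower genes were below 1 RPKM at clear gut. Across genes, which share libraries and are not replicates, Pearson's r between the stages was 0.274 and Spearman's rho -0.0281.

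Genes lower at both stages came from several groups. Among those with the largest smaller ratio were Victoria, MtnC, Sgs5 and Lcp65Ac, described above. CG17105 measured 894, 154 and 125 RPKM in the wild-type, Cmi and Trr-labelled libraries of blue gut, and 55.4, 1.44 and 5.32 in those of clear gut. CG14852 measured 318, 55.8 and 5.97 RPKM in the wild-type, Cmi and Trr-labelled libraries of blue gut, and 30.3, 0.062 and 19.7 in those of clear gut. CG6870 measured 89.7, 12.03 and 17.2 RPKM in the wild-type, Cmi and Trr-labelled libraries of blue gut, and 43.04, 2.09 and 18.4 in those of clear gut. CG43315 stood at 16.5 and 0.961 RPKM at blue gut and, later, 5.99 and 0.070 RPKM. For CG17105, CG14852, CG6870 and CG43315 Cmi depletion was below wild type in both pairs of libraries, and at clear gut the Trr-labelled library lay between them. Genes higher at both stages, beside Cyp12a4, Rack1, Pgd, Dcr-2, CG5953 and LysE, included CG42305. It measured 74.3, 615 and 205 RPKM in the wild-type, Cmi and Trr-labelled libraries of blue gut, and 20.1, 88.9 and 129 in those of clear gut. CG13822, listed in the annotation as GILT3, measured 3.03, 20.7 and 19.99 RPKM in the wild-type, Cmi and Trr-labelled libraries of blue gut, and 5.79, 23.3 and 28.3 in those of clear gut. In every hairpin library both genes were higher than in wild type of the same stage.

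**Figure D5:**
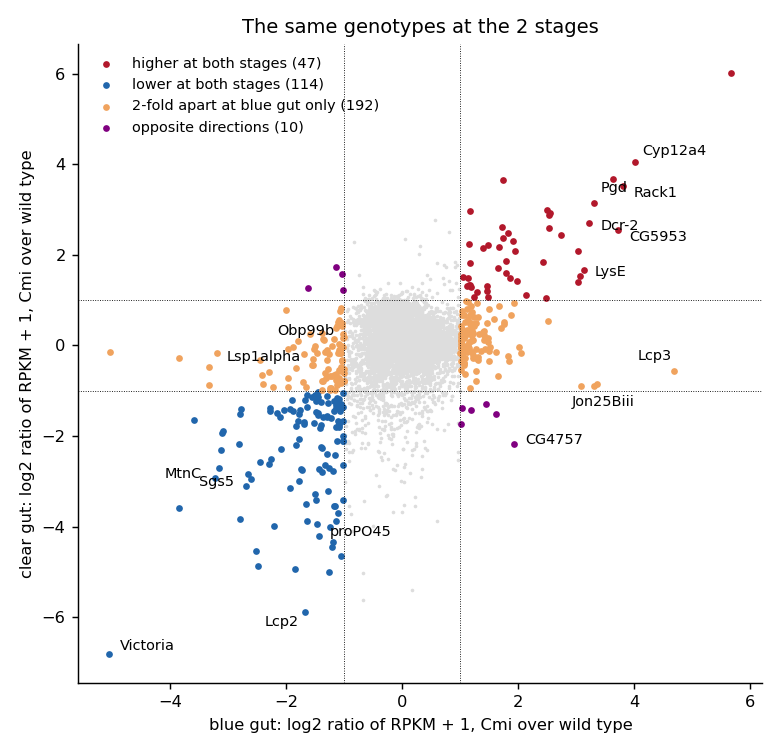
Each point is a gene compared at both stages, with its log2 ratio of RPKM + 1 for Cmi depletion over wild type at blue gut (x axis) and at clear gut (y axis), and dotted lines at 2-fold. Red and blue points, 47 and 114 in number, passed 2-fold the same way in each stage, and 10 purple points in opposite directions.

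The change with stage was read from the Trr-labelled libraries, which are on neither side of the comparison, and it can differ from wild type. Summed over the salivary glue list, RPKM went from 10341 to 18049 in the Trr-labelled libraries and from 23825 to 18853 in wild type. In the Trr-labelled libraries, 722 of the genes compared in both were 2-fold higher at clear gut than at blue gut (6.55%) and 762 lower (6.91%). Genes that were lower at clear gut held the largest share of differences at blue gut, 7.48% being 2-fold higher and 11.3% lower in Cmi depletion. Genes that were higher at clear gut gave 3.74% and 5.402%, and genes with neither gave 1.15% and 1.05%. Both directions were thus more frequent among genes that differ between the stages in the Trr-labelled libraries. Neither direction of that stage difference went with only higher or only lower genes. The median log2 ratio at blue gut was 0.02 for genes lower at clear gut, 0.18 for genes higher there and 0.07 for the rest.

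Along the genome the differing genes were spread over all the major arms. Of the genes compared, 1.51% on X were 2-fold higher and 2.05% lower, and the autosomal arms ranged from 1.47% (3R) to 2.17% (2R) for higher and from 2.18% (3L) to 2.59% (2R) for lower genes. The 10516 genes compared that could be placed were put in order of their start, so genes not compared were skipped. In that order 59 of 240 lower genes (24.6%) stood next to another lower gene. Likewise 30 of 174 higher genes (17.2%) stood next to another higher one. Over all genes compared 2.33% were lower and 1.92% higher. These are shares of single genes, whereas most genes have a neighbour on each side, so they are not like for like. The runs include related genes, such as the Hsp70 copies above, and their part in the shares with a like neighbour was not tested. The longest run was of 6 adjacent lower genes on chromosome 3L (16294711 to 16320454), CG4962, CG13044, CG13043, CG13063, CG13041 and CG13060, with log2 ratios from -3.13 to -1.12. CG13060 measured 11.8, 0.463 and 0.234 RPKM in the wild-type, Cmi and Trr-labelled libraries of blue gut, and 10.99, 1.42 and 2.02 in those of clear gut. On chromosome 2L (3692123 to 3695411) CG16704, Acp24A4, CG43165 and CG16713 formed a run of 4 lower genes. CG16713 stood at 641 and 129.9 RPKM in wild type and Cmi depletion, and CG16704 at 619.9 and 265. On chromosome 3R CG31104, CG31288 and CG13659, which start at 25285473, 25297960 and 25300891, were 19.1-fold, 14.3-fold and 11.4-fold lower.

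Other lower genes with the firmest counts were mostly named by identifier alone. CG33267 measured 72.8, 1.24 and 0.571 RPKM in the wild-type, Cmi and Trr-labelled libraries of blue gut, and 1.16, 0.956 and 0.834 in those of clear gut. CG42716 measured 30.5, 0.522 and 30.7 RPKM in the wild-type, Cmi and Trr-labelled libraries of blue gut, and 0.51, 0.615 and 0.644 in those of clear gut. CG15404 measured 555, 45.2 and 34.98 RPKM in the wild-type, Cmi and Trr-labelled libraries of blue gut, and 438, 139 and 603 in those of clear gut. CG33267 and CG15404 were low in both blue gut hairpin libraries, while CG42716 was low at blue gut in Cmi depletion alone. Its neighbour CG42717 measured 22.8, 0.651 and 22.6 RPKM in the wild-type, Cmi and Trr-labelled libraries of blue gut, and 146, 120.3 and 7.61 in those of clear gut, so at clear gut the Trr-labelled library was the low one. CG10081 was 17.5-fold lower (13.4 to 23.2) and CG43182 29.3-fold lower (13.97 to 73.9). RabX2, a small GTPase of the Rab family, had 46 wild-type reads and 0 under Cmi depletion. This was 15.7-fold lower with Cmi depletion set to a floor of 3 reads, and the exact counting interval began at 12.2-fold.

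Entries without a gene symbol made up 644 of the genes compared. Of these 40 (6.21%) were 2-fold higher in Cmi depletion and 19 (2.95%) lower. In 23 of the 40 the wild-type level was at most 1 RPKM, and 18 were 2-fold higher at clear gut too. The table and the annotation pair these entries with no gene, so they are only counted here.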

How the data were processed

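Whole larvae gave 6 mRNA libraries, 1 per genotype and stage, so the blue gut difference had no test, and no fit over both stages was made. Per the labels' protocol, RNA was selected with oligo dT, fragmented, sequenced on an Illumina HiSeq and aligned with SOAPaligner/SOAP2; per the submitters' processing notes, Bowtie and build dm6 were used. Neither the counting tool nor the annotation is given in the sources used here. The authors deposited RPKM per gene, with a gene length in bases. A dash was read as 0. In each library RPKM times length summed to a full library.

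Whole reads were recovered by seeking the depth at which values become whole: 85.4% to 86.3% of values lay within 0.1 of a whole read (20% by chance) and at least 99.98% within 0.1 of a whole or half-integer read (40% by chance). Rounding kept 1466 compared entries, mostly long ones, from being judged in 3 or more libraries. Intervals are exact Clopper-Pearson 95% intervals and the floor is 3 reads per library; both cover counting error only, since PCR copies are not independent molecules.

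Genes whose mean over both blue gut libraries reached 1 RPKM were compared as log2(RPKM + 1), which understates low genes, with 2-fold as the limit. The 53 gene lists and the rule for naming were chosen with earlier results of these data known. The rule named Lpt and trr, the 15 higher and 15 lower genes with the firmest counting limits, the 8 largest gains and losses in RPKM, up to 4 genes per list and 10 per direction shared by both stages; others are said to be named after their values were seen, or stand in a run or beside a limit. In 1 list of cuticle proteins a name pattern that also took accessory gland genes was corrected after the files were read. Of the identifiers 13253 (84.2%) were found in the RefSeq annotation of dm6, which gave coordinates and current symbols. No sequences were used here. Alternatives were pseudocounts of 0.1 and 5 RPKM, 2 scalings, 2 filters, counting limits, marked entries left out, and length. Scripts ran in Python 3.11.15 with numpy 2.4.6, pandas 2.3.3 and scipy 1.17.1, and were tested on simulated data.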

Additional observations from a re-analysis of the deposited data

Results flagged for a closer look

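In 10 genes Cmi depletion stood 2-fold or more from wild type in opposite directions at the stages, with 1 library per group, so that the difference between the stages was not tested. In 6 of them the log2 ratio of RPKM + 1 was above 0 at blue gut and below 0 at clear gut. It was 1.93 and -2.17 for CG4757, 1.62 and -1.52 for CG31538, and 1.44 and -1.29 for CG6048. For Muc26B, a mucin whose values were off whole reads, it was 1.19 and -1.42. For CG2930 it was 1.03 and -1.39, and for CG1461 (Tat, tyrosine aminotransferase) 1.01 and -1.74. In the remaining 4 the order was the other way round. The ratio was -1.63 and 1.27 for the cytochrome P450 Cyp9b2, -1.03 and 1.22 for the glutathione S-transferase GstD2, -1.15 and 1.73 for CG43679, and -1.05 and 1.59 for CG14237. Cyp9b2 measured 552, 178 and 224 RPKM in the wild-type, Cmi and Trr-labelled libraries of blue gut, and 56.1, 136 and 90.1 in those of clear gut. Wild type was the highest library at blue gut and the lowest at clear gut.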

How the results depend on the processing

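No replicate could be left out, since each group holds 1 library. No paired analysis was possible because the blue gut comparison has 1 library on each side; a fit over both stages, with stage as a block, would average the stages and was not run. The pseudocount moved the counts most. With 0.1 RPKM 742 genes were 2-fold apart, 389 higher and 353 lower, and with 5 RPKM 250, 85 higher and 165 lower, against 476, 215 and 261 as reported. With a mean of at least 5 RPKM 137 were higher. Higher genes per arm with 0.1 RPKM were 56 on X, 56 on 2L, 72 on 2R, 51 on 3L and 71 on 3R, against 25, 33, 47, 31 and 38. The other counts stayed within 1.5 times, under median-ratio scaling, quantile normalization, no filter on low values, counting limits, leaving out entries off whole reads and, added after the data were seen, taking ratios relative to genes of like length. Under that last setting 451 genes were 2-fold apart, of which 169 higher and 209 lower were among those reported. Of 157 genes under the naming rule 101 were 2-fold apart, and 101, 72, 99, 97 and 93 of these remained so with pseudocounts of 0.1 and 5 RPKM, median-ratio scaling, quantile normalization and relative to like length, with 0 changes of sign among them. The median of a gene list changed sign in 8 of 53 lists relative to like length and in 3 with median-ratio scaling. At the depth of these libraries 3 reads correspond to 0.0825 RPKM at the median gene length in Cmi depletion at blue gut, and the spread between pools is unknown.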
